A study of Sorghum bicolor with 12 samples.

Results

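In sulfur-deficient sorghum shoots, ribosome footprints were set against mRNA for each transcript. The transcripts described here are those with a mean of 10 or more counts over the 3 deficient shoots in both the RNA-seq and the Ribo-seq table, which held for 15998 of the 34026 transcripts listed in both tables. Sorghum (Sorghum bicolor) is a C4 cereal, and the plants were of the cultivar BTx623. Shoots were harvested 13 days after sowing, following 5 days of germination and 8 days on nutrient solution in vermiculite. The deficient solution held 10 µM magnesium sulfate per the growth protocol and the titles (S10), while the series' design text puts it at 0 µM, and control plants received 500 µM. Each treatment had 3 whole shoots described as biological replicates, and the powder of 1 shoot supplied both its libraries.

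RNA-seq counts fragments of mRNA. Ribo-seq counts the short stretches of mRNA that a ribosome shields from nuclease, so a transcript on which many ribosomes travel gives many footprints. The ratio of footprints to mRNA is therefore used as a measure of how heavily an mRNA is loaded with ribosomes, and it is often called translational efficiency. Features known to lower it in plants include short reading frames upstream of the coding sequence, which capture ribosomes, and retention of the mRNA in the nucleus. Sulfate is the source of the sulfur in cysteine and methionine, and every newly started protein begins with methionine.

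Total counts were 13995665 to 18475153 in the RNA libraries of the deficient shoots and 6328659 to 8961063 in their footprint libraries. The members took 98.3% to 98.5% of the RNA counts and 99.3% to 99.5% of the footprint counts. Libraries of 1 assay correlated at r = 0.984 to 0.994 for RNA and 0.970 to 0.972 for footprints over the members (log2 CPM, each count divided by the scaled library total). The files pair no gene names with the transcript IDs, and 0 IDs matched the reference gene table, so roles cannot be given, shoot marker genes could not be checked and at most 2 high and 2 low IDs are named per comparison. Each locus was represented by 1 transcript. Chromosomes are given as the IDs write them.

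Footprints followed mRNA closely over the whole range of abundance. Within shoots 1, 2 and 3, log2 footprint CPM and log2 mRNA CPM correlated across transcripts at r = 0.859, 0.858 and 0.880. The orthogonal slope was 1.13, 1.08 and 1.09 in these shoots, slightly steeper than proportional. Error in either assay affects that slope, and transcripts of 1 library do not count as replicates here.

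**Figure D1:**
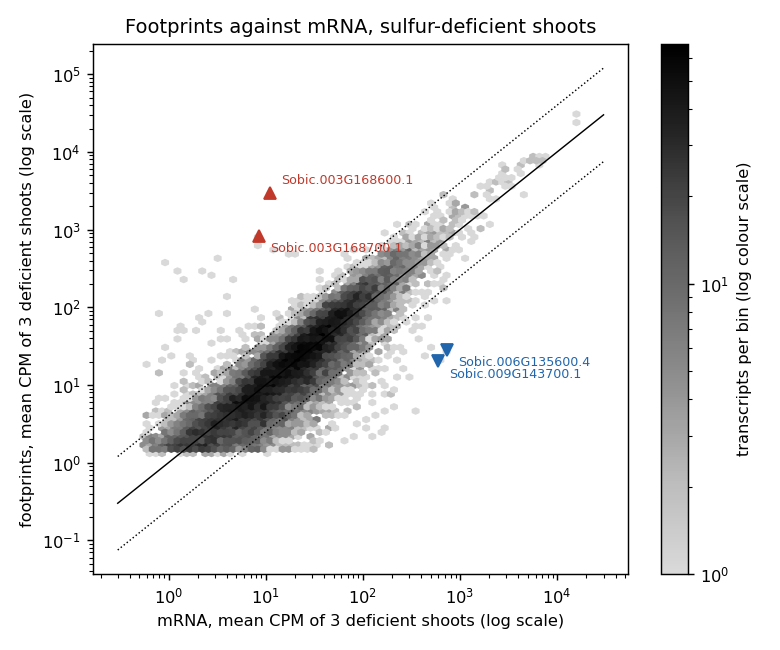
Each grey hexagon counts transcripts by mean mRNA CPM (x axis, log scale) and mean footprint CPM (y axis, log scale) of the 3 sulfur-deficient shoots. The solid line marks equal CPM and the dotted lines a 4-fold departure. The red and blue triangles are the 2 highest and 2 lowest named transcripts, which lie far outside the dotted lines.

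Around this common trend the ratio varied much more among transcripts than among the 3 shoots. On the log2 scale, with 0 as the trimmed mean over transcripts, the ratio had an SD of 1.03 across the 15998 members. Its 5th and 95th percentiles were -1.87 and 1.32, a 9.17-fold span, and its quartiles were -0.66 and 0.57, a 2.36-fold span. The median SD of a transcript between the 3 shoots was 0.237. The theoretical counting error, computed from the counts themselves, had a median of 0.166. It is not itself an SD over 3 shoots, so the 2 values are not strictly alike. Of all members, 6250 had a ratio above 0 in every shoot, 6184 below 0 in every shoot and 3564 on both sides.

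The ratios of individual shoots correlated across transcripts at r = 0.897 for shoots 1 and 2, 0.906 for 1 and 3, and 0.863 for 2 and 3. The SD across transcripts was 1.10, 1.09 and 1.01 in shoots 1, 2 and 3. Shoot 2 was the shoot farthest from the middle value for 41.1% of the members, against 26.3% for shoot 1 and 32.6% for shoot 3. The spread was thus similar in the 3 shoots, with shoot 2 most often apart under the pairing of libraries that the labels give.

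**Figure D2:**
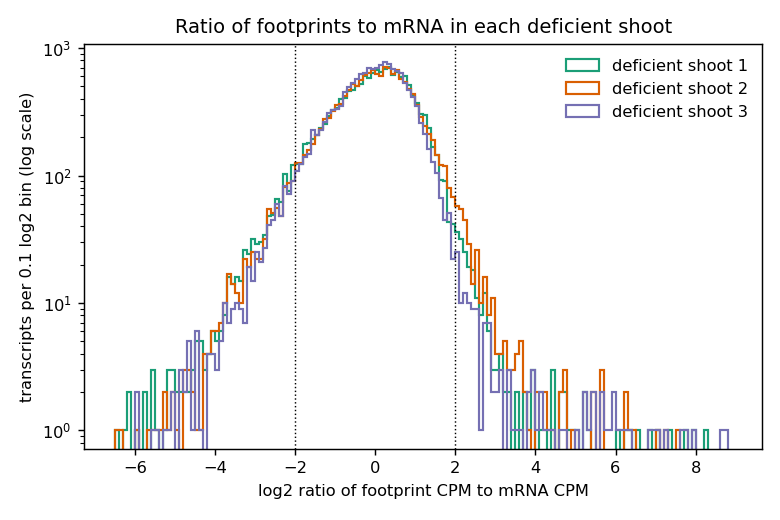
Histograms of the log2 ratio of footprint CPM to mRNA CPM (x axis) in each sulfur-deficient shoot, with the number of transcripts per bin on a log scale (y axis). The 3 shoots have nearly the same shape, with SDs of 1.10, 1.09 and 1.01, and long tails beyond the dotted lines at a 4-fold ratio.

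Which transcripts carried more or fewer footprints than their mRNA level was tested with edgeR's quasi-likelihood test, with the shoot as a block and Benjamini-Hochberg adjustment over all members. At an adjusted p of 0.05, 10452 of 15998 passed (65.3%), of which 5222 were high (32.6%) and 5230 low (32.7%). All 3 shoots lay on the same side of 0 for 10332 of the 10452. More transcripts were low than high at 2-fold and at 4-fold. At least 2-fold low were 2669 transcripts (16.7%), against 1757 at least 2-fold high (11%). At least 4-fold low were 657 (4.11%), against 162 high (1.01%). At 16-fold there were 37 low (0.231%) and 30 high (0.188%), and the mean ratio ranged from -6.33 to 8.45. The place of 0 depends on the scaling: with plain library totals the median log2 ratio moved from 0.02 to -0.29, and the calls became 3253 high and 7200 low.

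The highest ratios among well-counted transcripts, those with a mean of at least 100 counts in both tables, belonged to neighbours on chromosome 3. Sobic.003G168600.1, with a coding length of 471 bases, had RNA counts of 178, 248 and 174 in shoots 1, 2 and 3, against footprint counts of 13985, 14499 and 33317. In CPM its mRNA stood at 9.95, 12.1 and 11.4 and its footprints at 2479, 1870 and 4466. Every shoot thus had more than 100-fold more footprint than mRNA CPM, with shoot 3 the highest. The log2 ratio was 7.94 (SE 0.274, edgeR adjusted p = 1.78e-09, n = 3 shoots), or 245.8-fold.

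Sobic.003G168700.1, the next locus in number, has a coding length of 699 bases. Its RNA counts were 126, 198 and 137, and its footprint counts 3833, 3864 and 9968 in shoots 1, 2 and 3. Its log2 ratio per shoot was 6.59, 5.69 and 7.22, again highest in shoot 3 and lowest in shoot 2. The fitted log2 ratio was 6.49 (SE 0.274, edgeR adjusted p = 1.6e-08), or 89.8-fold. For both transcripts mRNA CPM was lowest in shoot 1 and highest in shoot 2, while footprints were highest in shoot 3. Whether ratios of this size reflect ribosome loading was not tested.

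The lowest ratios under the same limit of 100 counts in both tables came from abundant mRNAs, as a minimum of 100 footprints requires. Sobic.009G143700.1 on chromosome 9, with a coding length of 1335 bases, had RNA counts of 11390, 11606 and 8826 and footprint counts of only 127, 121 and 166. This is 637, 564 and 576 CPM of mRNA against 22.5, 15.6 and 22.3 CPM of footprints. Its log2 ratio was -4.89 (SE 0.146, edgeR adjusted p = 5.7e-12), which is 29.7-fold below a ratio of 0 on the log2 scale.

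Sobic.006G135600.4 on chromosome 6, with a coding length of 1368 bases, had RNA counts of 13564, 14914 and 11170 and footprint counts of 176, 222 and 188. Its log2 ratio per shoot was -4.60, -4.66 and -4.85, a narrow range. The fitted value was -4.71 (SE 0.138, edgeR adjusted p = 5.7e-12), or 26.1-fold below. In both low transcripts the 3 shoots lay close together, within an SD of 0.249 and 0.132.

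The transcripts with the most extreme ratios are described by length and counts, and the counts also enter the ratio. The 30 transcripts at least 16-fold high were short, with a median coding length of 411 bases against 1224 over all members. Of them, 24 had a mean RNA count under 100, so that their mRNA level rests on few counts, and 9 (30%) had a coding length of 300 bases or less, against 2.73% of all members. The 37 transcripts at least 16-fold low had a median coding length of 1152 bases, close to that of all members, a median RNA count of 2218 and a median footprint count of 26.3. None of these 37 had an RNA count under 100, a limit that the filter sets, since a transcript with few RNA counts and a low ratio has under 10 footprints.

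Locus numbers in the IDs are mostly multiples of 100, and 509 of the members (3.18%) had other numbers. Such numbers were held by 11 of the 30 transcripts at least 16-fold high (36.7%), by 27 of the 162 at least 4-fold high (16.7%), by 27 of the 657 at least 4-fold low (4.11%) and by 1 of the 37 at least 16-fold low (2.70%). The median ratio of these 509 was -0.01, against 0.01 for the others, but their SD was 1.43 against 1.01. Between shoots their median SD was 0.324 against 0.234, and their counting error was larger too, 0.25 against 0.164. Their wider spread lay mostly on the high side, with a 95th percentile of 2.31 against 1.31 and a 5th percentile of -2.06 against -1.87.

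The place of the members at least 4-fold high in ID order was also examined. The footprint table was cut into 685 windows of up to 50 successive transcripts, of which 561 held no such member, 100 held 1, 16 held 2 and 8 held 3 or more. The fullest window, chosen here after its values were seen, lay on chromosome 3 between locus numbers 167825 and 172200 and contained both named high transcripts. It held 23 members, of which 7 were at least 4-fold high, with log2 ratios of 3.65 to 7.94. Its other members had a median of -0.50. A further 3 transcripts in the window had footprints but under 10 RNA counts. The 3 successive windows centred there held 11 of the 162 (6.79%) and 9 of the 30 at least 16-fold high, beside 56 of all 15998 members (0.35%), and were picked for their high values. On the low side no window held more than 5 of the 657.

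Each of the 7 high members of that window had its highest ratio in shoot 3 and its lowest in shoot 2. Their median log2 ratio was 4.62 in shoot 1, 4.26 in shoot 2 and 5.85 in shoot 3. The window took 0.422%, 0.312% and 0.805% of all footprints in shoots 1, 2 and 3, against 0.106%, 0.111% and 0.112% of the RNA counts. The 2 named transcripts alone held 66.7%, 65.7% and 67.9% of the window's footprints. The window's footprint share thus varied between shoots while its RNA share was steady. None of the 7 high members had a mean RNA count above 308. The window's RNA share therefore rests mostly on its other transcripts and does not describe the mRNA of the 7. In control shoots all 7 were also at least 4-fold high, with log2 ratios of 4.34 to 7.92.

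**Figure D3:**
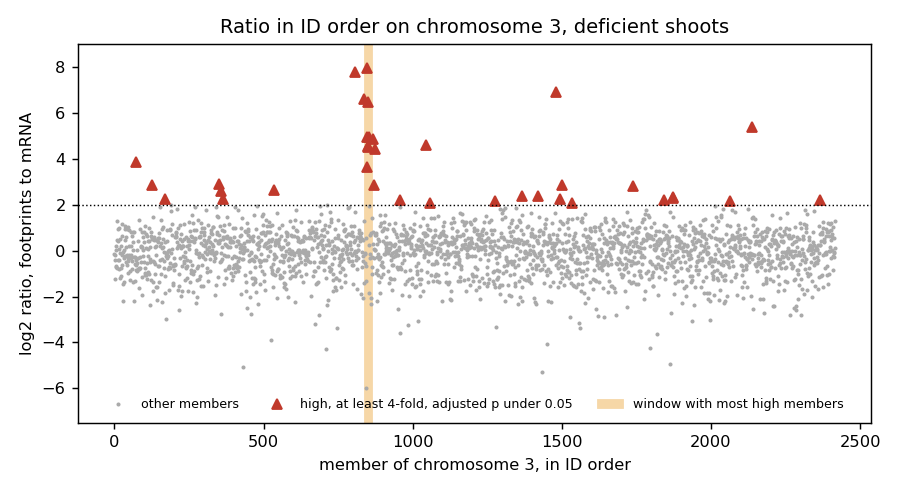
Log2 ratio of footprints to mRNA in deficient shoots (y axis) for the members of chromosome 3 in ID order (x axis, rank). Red triangles are transcripts at least 4-fold high, and the shaded window, which holds 7 of them, is the fullest of 685.

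For neighbouring loci in general the ratio was almost unrelated. Over 8534 pairs of members at successive places in ID order, r was 0.0573, and it was 0.0049 over pairs 5 places apart and -0.0129 at 100 places. The 51 successive pairs of identical coding length differed from the rest, with r = 0.572 against 0.0540 over the 8483 pairs of unequal length. How reads that match several transcripts were counted is not given in the sources used here. Sequences were not compared, so whether these pairs are copies that share counts was not tested.

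Transcripts that gave the most mRNA reads carried slightly more footprints than average. Counts here are per transcript without correction for length. The 10 transcripts with the highest mRNA CPM had a median log2 ratio of 0.30, and 3 of them were called high and 0 low. Of the leading 100, 99 were members, with a median of 0.49, 60 called high and 14 low, against 32.6% and 32.7% over all members. Of the leading 1000, 997 were members with a median of 0.22, of which 470 were called high and 298 low. This widest group also had the larger spread, from -6.33 to 2.30.

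Footprints were in turn more concentrated on few transcripts than mRNA. The 100 transcripts with most counts took 33.2%, 35.1% and 31.4% of the footprints in shoots 1, 2 and 3, but 27.2%, 27.0% and 27.7% of the RNA counts. The leading 1000 took 62.6%, 63.7% and 61.0% of the footprints, against 53.5%, 53.5% and 54.1% of the RNA counts. The footprint share exceeded the RNA share in every shoot. The lists were largely common: 79 of the 100 and 709 of the 1000 were leading in both assays.

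Above 100 RNA counts the median ratio was higher in each class of higher mRNA level. It was -0.16 for the 4442 members with 100 to 300 RNA counts, -0.07 for 5258 with 300 to 1000, 0.08 for 2370 with 1000 to 3000, 0.23 for 637 with 3000 to 10000 and 0.40 for 146 with more. In the lowest class, 10 to 30 RNA counts, the median was 0.82 with 280 of 581 called high and 0 low. In the next, 30 to 100, it was 0.10 over 2564 members. The minimum of 10 footprints bears on both, since at such mRNA levels few transcripts with a low ratio reach it. Of the 3972 transcripts left out for low footprints, 1789 had 30 or more RNA counts. The rest, more than the 581 members there, fell in the lowest class. With 30 to 100 RNA counts 1323 were left out, with 100 to 300 386, and with 300 to 1000 69. The share called at 2-fold or more low was 18.4% among transcripts with 1000 to 3000 RNA counts and 8.90% above 10000.

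Coding length bore on the ratio weakly, and differently in each shoot. Spearman's rho across members was -0.0779 for the mean ratio, and -0.0368, -0.169 and -0.0198 in shoots 1, 2 and 3. Shoot 2 contributed most to the value, since without it rho was -0.0279. Over members with a mean of at least 50 counts, all 3 shoots kept, rho was -0.118. In shoot 2 the median log2 ratio was 0.27 for coding lengths up to 600 bases and -0.21 above 2400 bases, a gap of 0.48. The same gap was 0.08 in shoot 1 and -0.0045 in shoot 3.

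The difference between shoots lay mainly in the footprint libraries. Relative to the mean of the other deficient shoots, the footprint library of shoot 2 stood 0.24 higher on the log2 scale for coding lengths up to 600 bases and 0.18 lower above 2400 bases. That of shoot 3 went the other way, 0.15 lower for the short and 0.17 higher for the long. For each transcript such deviations sum to 0 over the 3 shoots, so opposite signs are partly built in. The largest such median in an RNA library was -0.07, for the long transcripts of shoot 1. Control shoots differed among themselves as well, with rho of -0.115, -0.101 and -0.0145 in control shoots 1, 2 and 3. The cause was not tested.

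**Figure D4:**
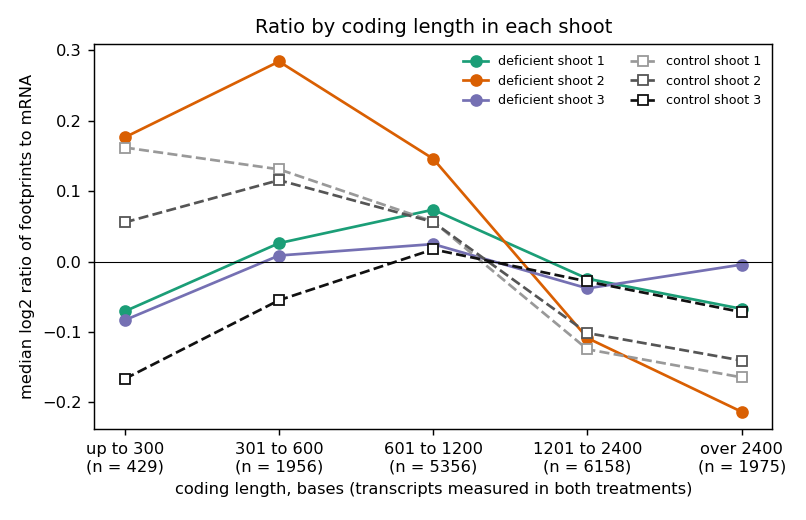
Median log2 ratio of footprints to mRNA (y axis) by coding length class in bases (x axis) for each deficient shoot (filled circles) and control shoot (open squares), over transcripts measured in both treatments. Deficient shoot 2 falls most steeply, with a gap of 0.48 between coding lengths up to 600 and over 2400 bases, while deficient shoots 1 and 3 are nearly flat.

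Above 300 bases the share called low rose with each length class, from 25.8% through 28.8% and 36.0% to 40.5%. The share at least 2-fold low rose likewise, from 12.1% through 13.7% and 19.1% to 21.8%. Only the shortest class broke this order. Among the 1982 members above 2400 bases, 802 were called low (40.5%) and 658 high (33.2%), and 21.8% were at least 2-fold low. Among the 1982 members of over 300 to 600 bases, 511 were called low (25.8%) and 689 high (34.8%), and 12.1% were at least 2-fold low. The shortest class, 437 members up to 300 bases, had 30.2% called low and 17.2% at least 2-fold low. Precision also differed, as the median SD between shoots was 0.222 above 2400 bases and 0.271 at over 300 to 600 bases. These shares are read beside the 32.7% low and 32.6% high of all members. The share called in either direction also rose, from 60.5% at over 300 to 600 bases to 73.7% above 2400 bases. Transcripts left out for low footprints do not enter these shares, and they were shorter. The 3972 left out had a median coding length of 882 bases, against 1224 for members. With at least 100 RNA counts, it was 559.5 against 1239 for all transcripts at that level. How far the filter shaped the rise was not tested.

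The IDs also carry a transcript number after the point, and 2192 members had one above 1. Their median log2 ratio was -0.11, against 0.03 for the 13806 transcripts numbered 1. Called low were 37.5% of the former and 31.9% of the latter, and called high 27.9% and 33.4%. The lower median was seen in every shoot, at -0.10, -0.10 and -0.12. Chromosomes differed little, with medians between -0.02 and 0.04 over the 10 chromosomes.

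A further 3972 transcripts had a mean of 10 or more RNA counts in deficient shoots but under 10 footprints, and so fell outside the members. They made up 19.9% of the 19970 transcripts at that mRNA level, 3.50% of the 13319 with at least 100 RNA counts and 0.348% of the 3164 with at least 1000. The 466 with at least 100 RNA counts had a median coding length of 559.5 bases, against 1239 for all transcripts at that level. Locus numbers other than multiples of 100 were held by 22.5% of them, against 3.21%. Footprints were absent from all 3 deficient shoots for 93 of the 466, and 382 of the 466 also had under 10 footprints in control shoots.

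The reverse case, 10 or more footprints with under 10 RNA counts, held for 80 transcripts, of which 73 also had 10 or more footprints in control shoots. They took 0.274%, 0.214% and 0.442% of the footprints in shoots 1, 2 and 3. Of these 80, 14 had at least 100 footprints and 10 had no RNA count in any deficient shoot. Shoot 3 was again the highest. At the threshold itself the values were continuous: 264 transcripts just inside it, with a lower mean of 10 to under 11 counts, had a median log2 ratio before scaling of -0.70, and 256 with 9 to under 10 had -0.70.

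The ratios of deficient shoots were then placed beside those of control shoots, which share no library with them. For 15874 of the members the control shoots also had 10 or more counts in both tables. Across these, the mean log2 ratios of deficient and control shoots gave a Pearson correlation of 0.971 and a Spearman correlation of 0.962, and their difference had an SD of 0.247 against 1.03 for the ratio itself. In control shoots 11352 were called (71.5%), 5570 of them high (35.1%) and 5782 low (36.4%). Of the 10401 called in deficient shoots, 9689 (93.2%) were called in the same direction in control shoots, which is 85.4% of the control list, and 0 were called in opposite directions. All 653 of the 4-fold low and 161 of the 4-fold high transcripts that were measured in control shoots were called there on the same side.

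The closeness of shoots overlapped within and between treatments. Ratios correlated at r = 0.865 to 0.908 between deficient shoots, 0.907 to 0.944 between control shoots and 0.865 to 0.937 between treatments. Deficient shoot 3 lay nearer to control shoots 1, 2 and 3 (r = 0.920, 0.937 and 0.935) than to deficient shoot 2 (r = 0.865). The median SD between shoots was 0.235 in deficient and 0.182 in control shoots.

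Whether the ratio of a transcript differed between treatments was asked of 1 edgeR model holding all 12 libraries, through its assay-by-treatment term and with the shoot as a block. None passed, 0 of 15874 (0%), while 561 (3.53%) had an unadjusted p under 0.05, 377 higher and 184 lower under deficiency. DESeq2 and limma also called 0, with 336 and 575 at an unadjusted p under 0.05. The median SE of the difference was 0.196 on the log2 scale. Groups did not overlap for 1250 transcripts (7.87%).

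The largest differences among transcripts with a mean of at least 100 counts in all 4 groups were small beside the range of ratios. The log2 ratio of Sobic.004G276200.1 was 1.11, 2.11 and 0.79 in deficient and 0.92, 0.40 and 0.62 in control shoots, so that the groups overlapped. Its difference was 0.74 (SE 0.309, edgeR adjusted p = 0.995). That of Sobic.001G263500.1 was 1.03, 1.06 and 0.77 against -0.09, 0.35 and 0.41, without overlap, a difference of 0.73 (SE 0.192, edgeR adjusted p = 0.995).

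On the lower side, the log2 ratio of Sobic.009G197000.1 was -0.07, -0.50 and 0.62 in deficient and 0.23, 0.88 and 0.98 in control shoots, with overlap. The difference was -0.69 (SE 0.281, edgeR adjusted p = 0.995). Sobic.004G036100.1 was low in both treatments, at -3.42, -3.67 and -2.62 in deficient and -3.01, -2.39 and -2.17 in control shoots, a difference of -0.69 (SE 0.283, edgeR adjusted p = 0.995). None of these 4 differences passed the test. Single deficient shoots moved 3 of them by more than 1.5 times. Without deficient shoot 2 the difference was 0.31 for Sobic.004G276200.1 and -0.42 for Sobic.009G197000.1. Sobic.004G036100.1 stood at -1.04 without deficient shoot 3.

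The transcripts with extreme ratios had them under both treatments. Sobic.003G168600.1 had log2 ratios of 7.37, 8.13 and 8.28 in control shoots, and the difference between treatments was 0.02 (SE 0.349). For Sobic.003G168700.1 the control values were 5.91, 6.51 and 7.08, and the difference was -0.0043 (SE 0.457). For Sobic.009G143700.1 they were -4.44, -4.59 and -4.69, against -4.82, -5.17 and -4.68 in deficient shoots, so that the groups overlapped, with a difference of -0.32 (SE 0.156, edgeR adjusted p = 0.995). Sobic.006G135600.4 had -4.54, -4.99 and -5.39, with a difference of 0.25 (SE 0.189).

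**Figure D5:**
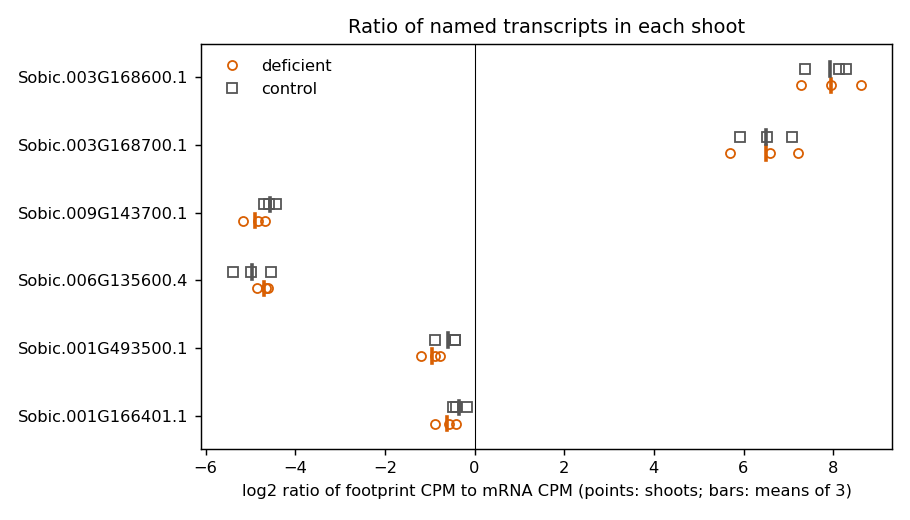
Log2 ratio of footprint CPM to mRNA CPM (x axis) in each deficient (circles) and control shoot (squares) for 6 named transcripts (y axis). Bars are means of 3 shoots. The high pair has fitted values of 7.94 and 6.49 and the low pair -4.89 and -4.71 in deficient shoots, with control shoots close by.

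mRNAs that rose under sulfur deficiency had ordinary ratios. In RNA, 123 of 20021 transcripts tested passed edgeR's threshold between treatments (0.614%), 109 of them higher (0.544%). The deficient RNA libraries enter both that choice and the ratio, so the ratios of these lists are given as a description. The 105 risen mRNAs among the members had a median log2 ratio of 0.16, with quartiles of -0.55 and 0.73, and 42 were called high (40%) and 32 low (30.5%), against 32.6% and 32.7% of all members. The 39 that rose at least 2-fold had a median of -0.08, against 0.01 over all members, with 13 called high (33.3%) and 14 low (35.9%). The 12 that fell had a median of 0.23.

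The 2 members with the largest called rises of mRNA, by 5.43 and 4.03 on the log2 scale, were both called low in the ratio. Sobic.001G493500.1 had RNA counts of 1316, 3452 and 2480 in deficient shoots 1, 2 and 3, and footprint counts of 183, 763 and 648. Its log2 ratio was -1.18, -0.77 and -0.90, below 0 in each shoot, with a fitted value of -0.94 (SE 0.115, edgeR adjusted p = 4.47e-06). In control shoots, on 14, 20 and 21 footprints, the ratio was -0.44, -0.87 and -0.44, which overlaps the deficient values. The difference between treatments was -0.31 (SE 0.237, edgeR adjusted p = 0.995).

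Sobic.001G166401.1 had RNA counts of 4489, 9424 and 6815 and footprint counts of 774, 2668 and 2237. Its log2 ratio was -0.87, -0.41 and -0.57, with a fitted value of -0.61 (SE 0.121, edgeR adjusted p = 0.000402), and the difference from control shoots was -0.25 (SE 0.153, edgeR adjusted p = 0.995). In both, mRNA and footprints were lowest in deficient shoot 1, as was the ratio.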

How the data were processed

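Whole shoots were profiled by RNA-seq and Ribo-seq, 3 per treatment. The authors deposited raw read counts per transcript, and raw footprint counts given as P sites summed over the coding sequence, with the coding length. The submitters' processing notes list Bowtie2 and STAR, with no role. Not given in the sources used here: counting program, genome build, annotation, offsets of the P site, and whether RNA counts cover untranslated regions, so ratios can carry a bias particular to a transcript. Footprints of 26 to 34 nt were cut from a gel per the labels' protocols. Column names are the same in both tables; the footprint table was recognised by its title and its coding-length column.

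Tables were joined on transcript ID. Of 34210 transcripts in the RNA table, 184 were listed there alone. Members were fitted with edgeR 4.0.16 in R 4.3.3 (TMM scaling, robust quasi-likelihood, terms shoot and assay, Benjamini-Hochberg over all members, threshold 0.05). Ratios per shoot used a prior count of 0.5. The labels' protocol states that 1 powder gave both libraries of a shoot. Deviations of RNA and footprints from their group means were correlated over 8332 members with at least 100 counts. Within shoots 1, 2 and 3 the correlation was 0.699, 0.0566 and 0.325. The RNA of shoot 2 correlated at 0.401 with the footprints of shoot 3, and the RNA of shoot 3 at 0.215 with the footprints of shoot 2. The pairing within shoots 2 and 3 therefore rests on the labels, and so do their ratios and the shoot block. Chi-square per degree of freedom between libraries was 2.82 to 20.6, so each counted as a separate sample. The main edgeR fits, of assay and of assay by treatment, were tested on simulated data, and the alternative fits and the RNA fit between treatments were not.

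The members, lists and tests were chosen with earlier results of these data known. Named transcripts are the 2 highest and 2 lowest called with at least 100 counts and 1 sign in all shoots. The 2 largest differences between treatments each way were taken by size, and the 2 largest mRNA rises were chosen after their values were seen. The 30 gene lists and the amino acid shares, which need product descriptions or protein sequences, were void. Alternatives were DESeq2 1.42.0, limma 3.58.1, other scalings and filters, and leaving out each shoot.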

Additional observations from a re-analysis of the deposited data

How the results depend on the processing

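The count of called transcripts (10452) ranged from 7505, with at least 50 counts, to 12933 with no filter, and the count at 2-fold or more (4426) was 2450 with at least 50 counts and 2403 when tested against a 2-fold ratio, both of which remove transcripts by construction. Leaving out 1 shoot gave 8237 to 10418 and 4294 to 4747. No called transcript was called in the opposite direction under another filter, scaling or tool or with 1 shoot left out; directions were not compared for the test against a 2-fold ratio. Plain library totals gave 31.1% of calls high, and totals without the 20 most abundant members 33.8%, against 50% in the main analysis. Without the replicate block 9918 were called, and DESeq2 called 9036. The SD over members, 1.03, was 0.896 with at least 50 counts and 1.017 to 1.068 with 1 shoot left out. The Spearman correlation of the ratio with coding length (-0.0779) was -0.118 with at least 50 counts, -0.169 in shoot 2 alone, and -0.105 to -0.0279 with 1 shoot left out. The cause was not tested. The interaction called 0 transcripts under every alternative run. Transcripts with an unadjusted p under 0.05 numbered 232 to 1747 after dropping 1 shoot, most without deficient shoot 3, and 381 without the replicate block. The ratios of the 2 high and 2 low named transcripts kept direction and call under the alternatives run on them, which did not include the test against a 2-fold ratio, and those of the 2 risen mRNAs were not recomputed. Depth limits the 3077 members with 10 to 30 footprints, whose median SD between shoots was 0.426, against 0.193 above 3000.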
